A study of Mus musculus with 30 samples.

Results

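Sarcolipin (Sln) and the genes that store, release and recapture calcium in the sarcoplasmic reticulum of muscle were followed in the quadriceps of mice on a high fat or a low fat diet. The list held 9 genes: Sln, Pln, Casq1, Casq2, Ryr1, Jph1, Jph2, Cacna1s and Atp2a1. A row was matched by mouse gene number for 8 of the 9, out of 16475 gene entries on the arrays, and Casq1 was not analysed here. Sln and Jph2 were chosen by measured values of these arrays: Sln because it was higher after 56 days on the low fat diet than at day 0, and Jph2 because its level parts 9 arrays from the other 21. Comparisons of the listed genes that rest on those readings are therefore given as descriptions, without a test. The comparison between the diets was tested, and for Sln it shares its low fat day 56 arrays with the comparison used to choose it.

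Quadriceps RNA from 30 male mice was hybridised to Affymetrix arrays, 1 mouse per array, in 3 groups of 10. HF day 56 mice had eaten a high fat diet for 56 days and LF day 56 mice a low fat diet for as long; both groups were 20 weeks old. LF day 0 mice were killed at 12 weeks of age, at the start of that period. Every mouse, whatever its group, was first kept on the low fat diet for a run-in of 3 weeks from 9 weeks of age, and was then killed or assigned to a diet at random. The strain is given as C57BL/6J in the description of the study and spelled C56BL/6J in the sample labels, and no genetic modification is mentioned. Age and time on diet go together in both comparisons with LF day 0 and cannot be told apart. Levels are linear intensities as deposited, differences are on the log2 scale with their standard error (SE), and intensities below 20 are treated as close to background.

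A muscle fibre contracts when calcium leaves the sarcoplasmic reticulum and relaxes when it is pumped back. The voltage sensor of the T-tubule, whose pore subunit is Cacna1s, opens the ryanodine receptor Ryr1 in the facing reticulum membrane, and junctophilins (Jph1 and Jph2) hold those membranes side by side. Inside the reticulum calcium is bound by calsequestrin, in the forms Casq1 and Casq2, of which Casq2 is found mainly in slow fibres and heart. The pump SERCA1 (Atp2a1) returns calcium in fast fibres, while SERCA2 (Atp2a2) does so in slow fibres. Sarcolipin and phospholamban (Pln) are small membrane proteins that bind and restrain the pump, and in mice sarcolipin lets the pump spend ATP with less calcium moved, which releases heat.

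RefSeq promoter windows were found for 7 of the 9 genes. Those of calsequestrin 2, of the pump inhibitor phospholamban and of the voltage sensor are shown because their genes differed in level and spread. Casq2 was above background with a wide spread, Pln was near background, and Cacna1s kept to a narrow band. The 250 bases before each annotated start are given 5′ to 3′ (GRCm38.p6, plus strand), with motif matches in capitals. They lie at chr3:102086165-102086414 for Casq2, chr10:53337436-53337685 for Pln and chr1:136052561-136052810 for Cacna1s.
Casq2: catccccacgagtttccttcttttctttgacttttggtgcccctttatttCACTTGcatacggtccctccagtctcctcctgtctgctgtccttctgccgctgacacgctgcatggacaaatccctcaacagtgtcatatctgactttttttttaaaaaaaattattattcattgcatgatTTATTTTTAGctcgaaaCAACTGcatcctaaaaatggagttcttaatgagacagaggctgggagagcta
Pln: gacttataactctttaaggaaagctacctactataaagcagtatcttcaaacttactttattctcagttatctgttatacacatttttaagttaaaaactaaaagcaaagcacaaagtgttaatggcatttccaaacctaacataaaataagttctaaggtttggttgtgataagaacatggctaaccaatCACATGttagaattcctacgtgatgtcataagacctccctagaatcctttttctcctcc
Cacna1s: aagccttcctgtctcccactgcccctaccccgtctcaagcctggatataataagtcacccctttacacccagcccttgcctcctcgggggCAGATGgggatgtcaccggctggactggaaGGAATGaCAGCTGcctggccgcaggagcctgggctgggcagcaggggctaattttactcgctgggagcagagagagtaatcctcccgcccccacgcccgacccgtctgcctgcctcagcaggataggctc
Motifs of muscle transcription factors were searched on both strands. The E box (CANNTG, read by MyoD and its relatives) occurred 2 times before Casq2, 1 time before Pln and 2 times before Cacna1s, and 66.2% of all 32851 promoter windows of this length hold at least 1. The MCAT element (CATTCC) matched 1 time, before Cacna1s, where it stands on the minus strand as the capitals GGAATG, and 12.6% of windows hold it. A MEF2 motif matched 1 time, before Casq2, at 69 to 60 bases before the start, and 2.92% of windows hold it. A CArG box, held by 1.47% of windows, had no match in these 3. No match overlapped another. A match is a string of letters, not a site shown to be bound.

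The arrays did not form a uniform collection. The spike-in control RNAs, which are added during sample preparation and read near their 5′ and 3′ ends, parted 9 arrays with more 5′ signal from the other 21, with 3 and 7 arrays in each group. The white-cell transcript S100a8 was above 100 on 17 arrays, 6 of HF day 56, 4 of LF day 56 and 7 of LF day 0. The muscle markers Ckm and Acta1 were at 20472 to 22973 and at 26778 to 30599 on all arrays. The markers of heart muscle Nppa, Myl7, Tbx5, Myh6 and Tnni3 stayed at or below 5.9, and others of the same lists read higher. The 4 atrial markers measured summed to 37.9 to 97.2 in HF day 56, 28.8 to 76.2 in LF day 56 and 28.4 to 102.3 in LF day 0 mice. Of these, 1 was above 20 on at least 5 arrays. The 3 ventricular markers summed to 19.1 to 27.4, 23.9 to 27.1 and 18.8 to 28.9 in the same order, and 0 were above 20 on at least 5 arrays.

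**Figure D1:**
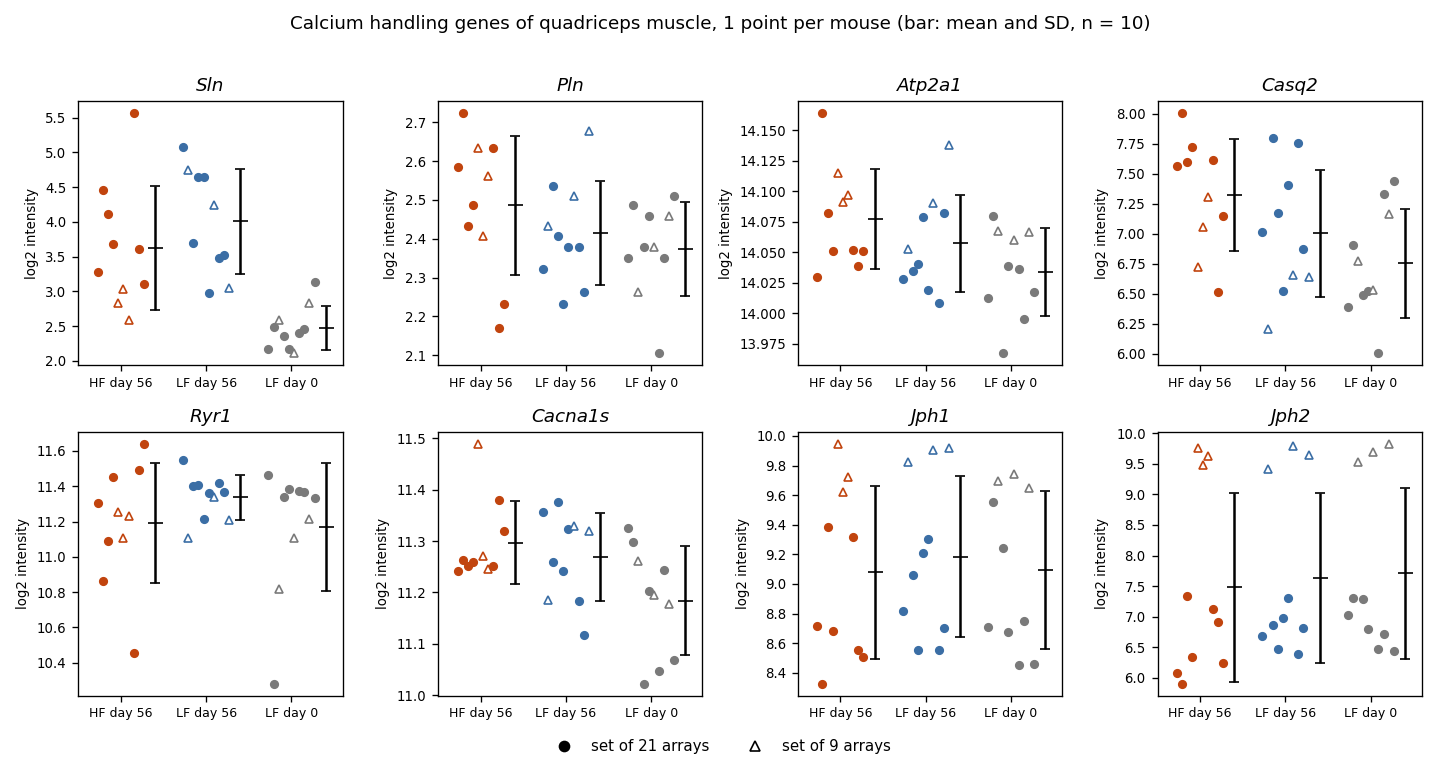
Log2 intensity of the 8 measured genes in every mouse, each panel on its own vertical axis, with groups from left to right HF day 56, LF day 56 and LF day 0. Each point is 1 array, with open triangles for the 9 arrays with more 5′ signal, and bars give the mean and SD of 10 arrays; the triangles of Jph1 and Jph2 lie above all other points, and the Sln points of LF day 0 lie at the low end of their panel.

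Sln had low intensities throughout, with the highest values on a few day 56 arrays of either diet. The HF day 56 arrays had a lowest, median and highest value of 6.0, 10.95 and 47.2. Corresponding values were 7.9, 16.0 and 33.7 on the LF day 56 arrays. The LF day 0 arrays gave 4.3, 5.4 and 8.8. The groups of day 56 overlapped each other over most of their range, and they overlapped LF day 0 only at their low end: 6 of 10 HF day 56 arrays and 8 of 10 LF day 56 arrays exceeded 8.8. An intensity of 20 was exceeded on 2 HF day 56 arrays (replicates 2 and 8), on 4 LF day 56 arrays (replicates 1, 2, 4 and 5) and on 0 of the LF day 0 arrays.

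**Figure D2:**
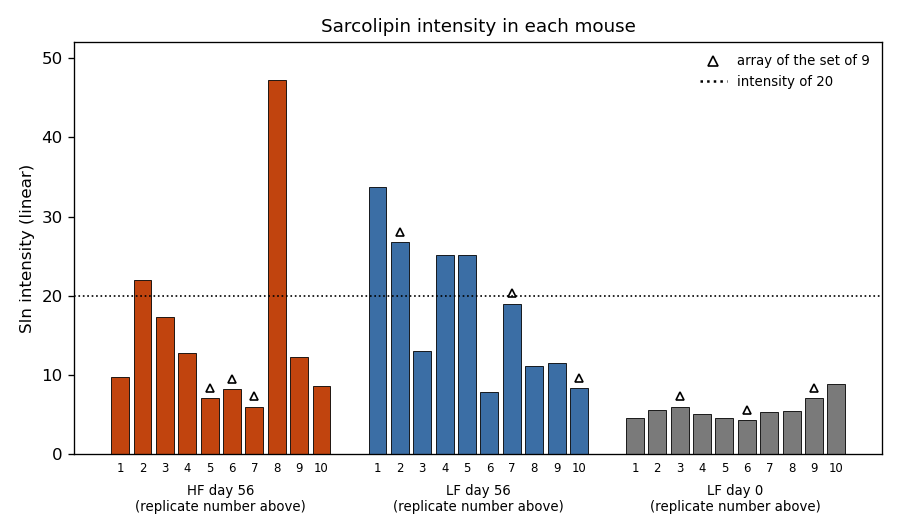
Sln intensity (linear, bars from 0) in each mouse, by group and replicate number, with triangles over the 9 arrays with more 5′ signal and a dotted line at 20. HF replicate 8 stands highest at 47.2, the 3 triangles of HF day 56 stand between 6.0 and 8.2, and no LF day 0 bar exceeds 8.8.

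Set against LF day 0, Sln was higher by 1.54 ± 0.29 in LF day 56 mice, a 2.91-fold difference, and all 10 LF day 56 arrays lay above the LF day 0 mean. That is the comparison from which Sln was picked. In HF day 56 mice it was higher by 1.16 ± 0.29, or 2.23-fold, again with 10 of 10 arrays above the LF day 0 mean, and the LF day 0 arrays are shared by both comparisons. The size of these differences depends on the low end of the scale, where LF day 0 arrays are close to background: with 16 added to every intensity they were 0.61 and 0.45. The LF day 56 difference was 1.55 on the 21 arrays and 1.51 on the 9. The HF day 56 difference was 1.52 on the 21 arrays and 0.31 on the 9.

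Between the diets at day 56, Sln was lower in HF than in LF mice by 0.38 on average (log2 difference -0.38 ± 0.29, 95% interval -0.98 to 0.21), and this did not pass the limma test (adjusted p = 0.998). In fold terms the interval ran from 0.506 to 1.16, and 7 of 10 HF arrays lay below the LF mean. This comparison shares its LF day 56 arrays with the one from which Sln was chosen. HF replicate 8 weighed on the value: without it the difference was -0.60 (adjusted p = 0.927). The difference was -0.04 ± 0.33 on the 21 arrays and -1.20 ± 0.36 on the 9, where the HF arrays read 6.0, 7.1 and 8.2 and the LF arrays 8.3, 19.0 and 26.8. Neither passed the limma test (adjusted p = 0.999 and 0.993), and the gap between the array sets was not tested.

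Markers of tendon, fat, bone and endothelium also differed between the groups in which Sln differed. The counts that follow are of markers that passed the limma test at an adjusted p under 0.05. Of all entries, 0.625% were lower and 0.225% higher by this test in LF day 56 than in LF day 0 mice. For HF day 56 against LF day 0 mice, 0.807% were lower and 0.783% higher. Of the 4 tendon markers measured, 3 were lower in LF day 56 than in LF day 0 mice, and the summed tendon level was 2190 to 2727 in LF day 56 and 2957 to 4402 in LF day 0 mice. In HF day 56 against LF day 0 mice, 3 of the 4 tendon markers were lower and all 4 measured adipocyte markers of the 6 listed were higher. The summed adipocyte level was 642.1 to 3306 in HF day 56, 766.6 to 1620 in LF day 56 and 499.8 to 1271 in LF day 0 mice. Of the 3 bone and cartilage markers measured, 2 were lower in LF day 56 than in LF day 0 mice, and their summed level was 12.0 to 41.1 in HF day 56, 11.6 to 24 in LF day 56 and 12.8 to 255.4 in LF day 0 mice. Of 5 endothelial markers, 1 was lower in each comparison with LF day 0, and the summed level was 372.6 to 608.9 in HF day 56, 335.4 to 550.5 in LF day 56 and 384.1 to 809.7 in LF day 0 mice. The part of these tissues in the Sln values was not tested. Across the 21 arrays, Sln correlated with the mean level of the tendon markers at r = -0.593 (rho = -0.619), as a description over arrays that share groups. The values were r = 0.532 (rho = 0.578) with the skeletal muscle fibre markers, r = 0.389 (rho = 0.487) with the adipocyte markers, r = -0.371 (rho = -0.364) with the endothelial markers, r = -0.254 (rho = -0.165) with the bone and cartilage markers, and r = 0.219 (rho = 0.273) with the score of 6 slow fibre genes. After centring within group and array set, over 30 arrays, they were 0.0421 for tendon, 0.20 for skeletal muscle fibre, -0.155 for adipocyte, 0.0389 for endothelial, 0.186 for bone and cartilage and -0.0908 for the slow fibre score.

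Phospholamban was near background on every array. Pln read 4.5 to 6.6 in HF day 56, 4.7 to 6.4 in LF day 56 and 4.3 to 5.7 in LF day 0 mice, with medians of 5.75, 5.25 and 5.2. The difference between the diets was 0.07 ± 0.07 (limma adjusted p = 0.998). Values this low set no useful bound on how Pln differs between the groups. Even so, Pln correlated with Casq2 at r = 0.728 (rho = 0.709) and with the score of 6 slow fibre genes at r = 0.576 (rho = 0.604) on the 21 arrays. On the 9 arrays r was 0.0762 and -0.0904. After centring within group and array set, over 30 arrays, the values were 0.715 and 0.50.

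The pump itself was the steadiest of the listed genes. Atp2a1 had a lowest, median and highest intensity of 16723, 17163 and 18352 in HF day 56 mice and of 16481, 16918 and 18030 in LF day 56 mice, against 16012, 16815 and 17317 in LF day 0 mice. The 3 groups overlapped. Its SD within groups was 0.0391 on the log2 scale, below that of all but 0.102% of the entries above 20 on at least 5 arrays, whose median was 0.190. These intensities lie near the top of the values on the arrays, which ended at 30599, and the part of probe saturation in the narrow spread was not tested. The difference between the diets was 0.02 ± 0.03, with a fold interval of 0.971 to 1.06 (limma adjusted p = 0.998), and it was -0.01 with quantile normalization. Against LF day 0 the difference was 0.02 ± 0.03 in LF day 56 mice and 0.04 ± 0.03 in HF day 56 mice, the second turning to -0.02 with quantile normalization.

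Calsequestrin 2 was clearly above background in every mouse and had a wide spread within groups (SD 0.485 on the log2 scale). Casq2 had a lowest, median and highest intensity of 91.2, 173.8 and 256.5 in HF day 56 mice. Those of LF day 56 mice were 74.0, 123.0 and 222.1, and those of LF day 0 mice 64.1, 100.8 and 173.3. All 3 groups overlapped over most of their range. The diet difference was 0.32 ± 0.20 (95% interval -0.10 to 0.74), higher than the LF mean on 8 of 10 HF arrays, and it did not pass the limma test (adjusted p = 0.998). Against LF day 0, Casq2 differed by 0.25 ± 0.20 in LF day 56 mice and by 0.57 ± 0.20 in HF day 56 mice. The LF day 56 value was 0.49 on the 21 arrays and -0.32 on the 9.

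Slow fibre genes ranged widely from mouse to mouse in all groups, and Casq2 went with them and with the myosins of fibre types IIA and IIX. The 7 slow fibre markers summed to 90.9 to 4841 in HF day 56, 168.6 to 6982 in LF day 56 and 169.8 to 5080 in LF day 0 mice. Myh7, the slow myosin heavy chain, ran from 3.2 to 842.6 over all arrays. In each of the 3 comparisons 0 of the 7 passed the limma test, and 0 had an unadjusted p under 0.05. Between the diets 0.0243% of all entries passed, and 0.85% and 1.59% in LF and HF day 56 against LF day 0. The median difference of the 7 was -0.279, 0.812 and 0.602 in the same order. The SD of their mean log2 level was 1.59 to 1.83 within groups, so these counts do not show equal levels. In RNA of whole muscle, fewer fibres of a type and less RNA per fibre cannot be told apart. Casq2 correlated with the slow fibre score at r = 0.787 (rho = 0.732) on the 21 arrays and r = 0.683 on the 9. After centring within group and array set the correlation over 30 arrays was 0.799. With the mean of Myh1 and Myh2, the myosins of fibre types IIX and IIA, it was r = 0.766 (rho = 0.771) on the 21 arrays. That correlation was 0.812 on the 9 arrays and 0.761 over 30 arrays after centring. The slow-fibre pump Atp2a2 correlated with the slow score at r = 0.979 (rho = 0.973) on the 21 arrays, while Sln showed r = 0.219 with it. On the 9 arrays the values were 0.972 for Atp2a2 and -0.346 for Sln. With the slow fibre score as a covariate, Casq2 differed by 0.37 between the diets (limma adjusted p = 0.739), by 0.12 between LF day 56 and LF day 0, and by 0.49 between HF day 56 and LF day 0.

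**Figure D3:**
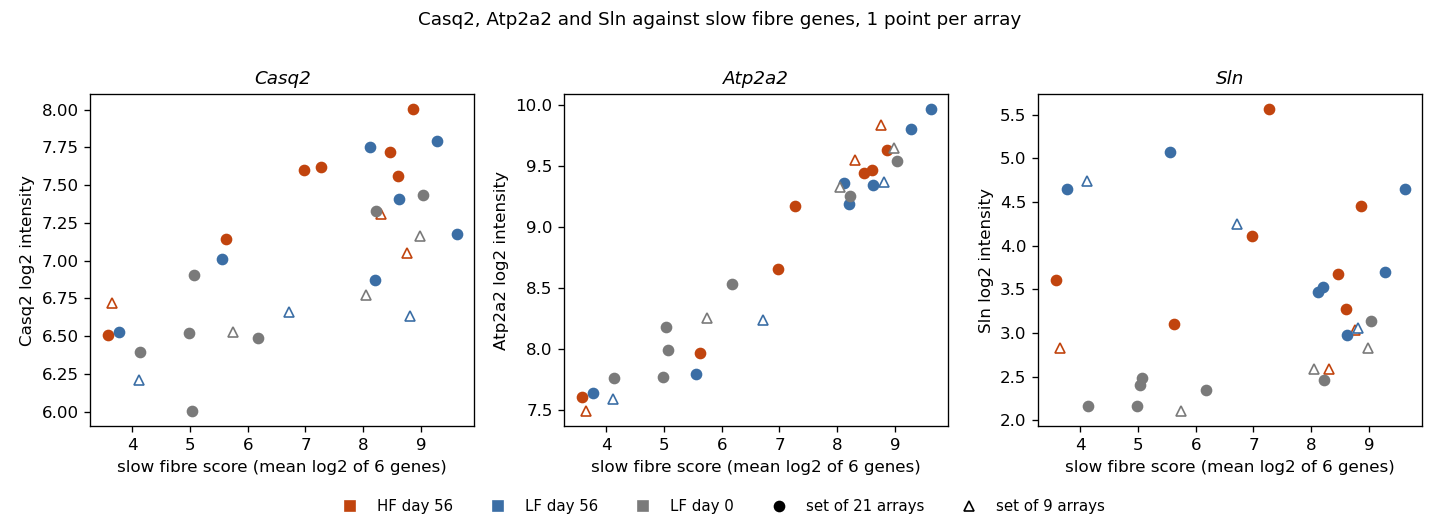
Log2 intensity of Casq2, Atp2a2 and Sln against the slow fibre score (mean log2 intensity of 6 slow fibre genes), 1 point per array, coloured by group, with triangles for the 9 arrays with more 5′ signal. Casq2 and Atp2a2 climb with the score (r = 0.787 and 0.979 on the 21 arrays). Sln has no steady climb, with r = 0.219 on the 21 arrays, -0.346 on the 9 and 0.0643 over 30.

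The ryanodine receptor was abundant and even in most mice, with a few low arrays. Ryr1 had a lowest, median and highest intensity of 1405, 2424 and 3196 in HF day 56 mice and of 2209, 2641 and 3000 in LF day 56 mice, against 1245, 2584 and 2821 in LF day 0 mice. The groups overlapped. The diet difference was -0.15 ± 0.13 (limma adjusted p = 0.998), and it was 0.07 without the 17 arrays with S100a8 above 100. Against LF day 0 the difference was 0.17 ± 0.13 in LF day 56 mice and 0.02 ± 0.13 in HF day 56 mice.

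The voltage sensor held to a narrow band. Cacna1s had a lowest, median and highest intensity of 2421, 2455 and 2876 in HF day 56 mice and of 2222, 2503 and 2656 in LF day 56 mice, against 2080, 2350 and 2567 in LF day 0 mice. Its SD within groups was 0.0914, smaller than that of all but 6.41% of the entries above 20 on at least 5 arrays. The diet difference was 0.03 ± 0.05, with a fold interval of 0.955 to 1.09 (limma adjusted p = 0.998). Against LF day 0 it differed by 0.08 ± 0.05 in LF day 56 mice, and by 0.11 ± 0.05 in HF day 56 mice, of which 10 of 10 lay above the LF day 0 mean while the ranges overlapped.

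In the test between the diets, 0 of the 8 genes passed, where 0.0243% of all 16475 entries did (4 entries, all higher in HF day 56). With limma, 0 of the 8 had an unadjusted p under 0.05 and the smallest was 0.128, for Casq2. In the 263 values that 33 other settings gave for these genes, 0 passed after adjustment, the smallest adjusted p being 0.739. An unadjusted limma p under 0.05 was reached by 5 of them: Sln on the 9 arrays (p = 0.00744) and without HF replicate 8 (p = 0.0248), and Casq2 on the 9 arrays (p = 0.0242), with the slow fibre score (p = 0.0121) and without HF replicate 9 (p = 0.0499). The p-values of Sln are no independent evidence, since Sln was chosen for its high values on the same LF day 56 arrays. The 9 arrays hold 3 mice per group. The widths of the intervals differed greatly: the fold between the diets was bounded to 0.971 to 1.06 for Atp2a1 and to 0.382 to 2.11 for Jph2. In this fit by group alone, a missed threshold does not bound the junctophilins, Sln or Casq2 closely. With the array set as a block the SE was 0.15 instead of 0.60 for Jph2 and 0.14 instead of 0.23 for Jph1. For Sln and Casq2 it was 0.29 and 0.19.

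**Figure D4:**
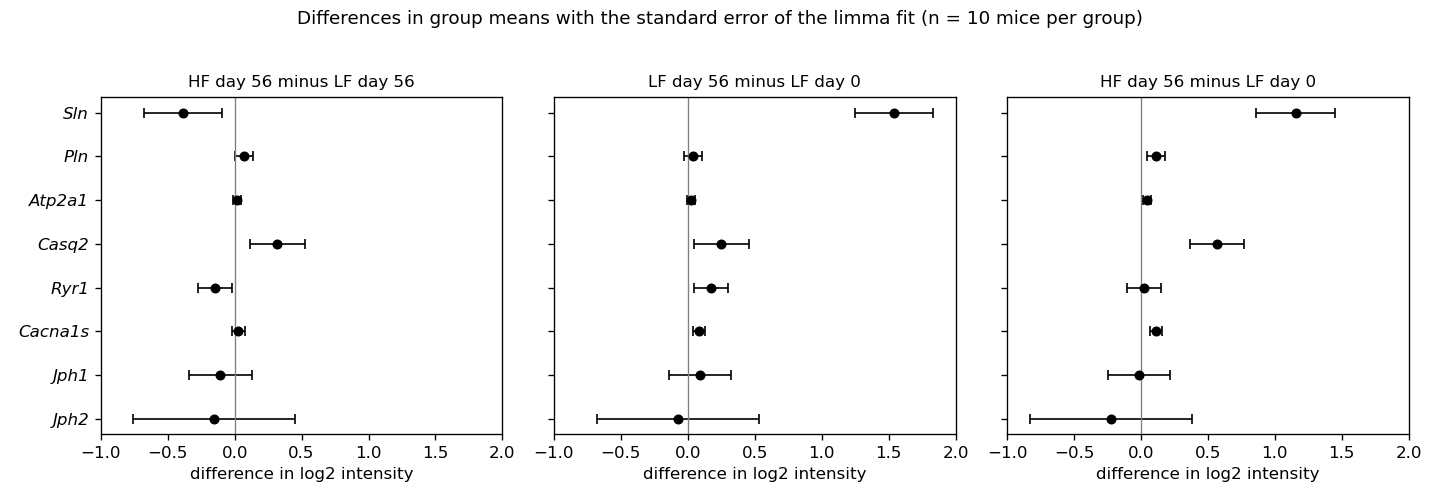
Log2 differences of the 8 genes in the comparisons HF day 56 against LF day 56, LF day 56 against LF day 0 and HF day 56 against LF day 0, with bars for the standard error of the limma fit. Sln stands to the right in both comparisons with LF day 0 (1.54 and 1.16) and at -0.38 between the diets, and Jph2 has the widest bars (SE 0.60).

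The junctophilins were ordered by array set and not by group. Jph2 read 680.4 to 911.4 on the 9 arrays with more 5′ signal and 59.9 to 162.5 on the 21, so the bound at log2 8 that its selection used falls in a gap between 680.4 and 162.5. The difference between the sets was 2.90 ± 0.14, or 7.47-fold, and the rule had used it. Jph1 read 787.9 to 988.2 on the 9 arrays and 321.1 to 752.8 on the 21, with no overlap and a difference of 0.94 ± 0.12, or 1.92-fold. Across all entries 23.1% passed the limma test between the array sets and the median size of the difference was 0.0890. Of the other listed genes, Sln differed between the sets by -0.37 ± 0.26, Casq2 by -0.35 ± 0.17, Ryr1 by -0.11 ± 0.11, Pln by 0.08 ± 0.06, Cacna1s by 0.04 ± 0.04 and Atp2a1 by 0.04 ± 0.03.

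Within the 21 arrays, which share the lower 5′ signal, Jph1 still followed the spike-in difference, with r = 0.902 (rho = 0.889). On the 9 arrays r was 0.0213. For Jph2 the correlation on the 21 arrays was r = 0.651 (rho = 0.625), and the 2 junctophilins correlated with each other at r = 0.835 (rho = 0.781). Ryr1 ran the other way on the 21 arrays, at r = -0.46 (rho = -0.538) with the spike-in difference. On the 9 arrays r with that difference was -0.22 for Jph2 and 0.158 for Ryr1. Jph1 also correlated with the mean level of 5 markers of fast IIB fibres, at r = 0.79 on the 21 arrays and 0.711 on the 9. For Jph2 these values were 0.701 and 0.479. The part of fibre type in the junctophilin values was not tested.

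**Figure D5:**
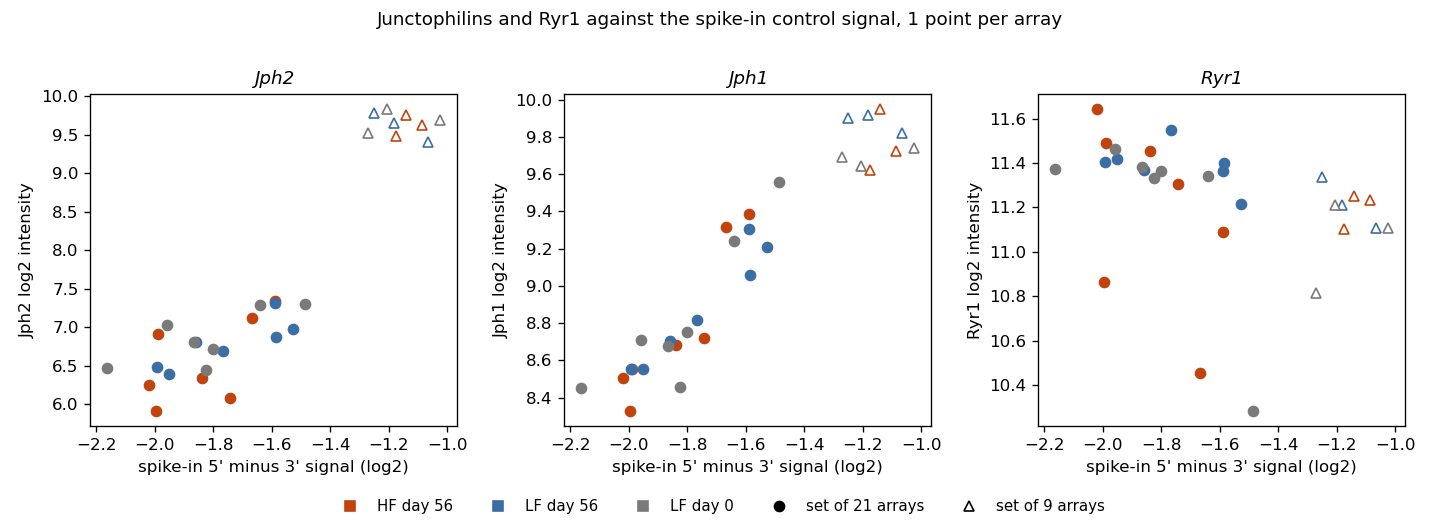
Log2 intensity of Jph2, Jph1 and Ryr1 against the 5′ minus 3′ log2 signal of the spike-in controls, 1 point per array, coloured by group. The 9 arrays (triangles) stand apart in both junctophilins, Jph1 also climbs along the spike-in axis within the 21 arrays (r = 0.902), and Ryr1 overlaps between the sets.

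Each group held 3 of the 9 arrays. The SD of Jph2 was 1.45 within groups and 0.374 within groups and array sets, and that of Jph1 was 0.554 and 0.333. In HF day 56 mice Jph2 had a lowest, median and highest intensity of 59.9, 129.9 and 862.4, in LF day 56 mice 83.6, 121.6 and 883.3, and in LF day 0 mice 86.6, 143.0 and 911.4. The Jph2 diet difference was -0.16 ± 0.60 (limma adjusted p = 0.998), and it lay between -0.41 and 0.08 when single arrays were left out. Jph1 had a lowest, median and highest intensity of 321.1, 530.2 and 988.2 in HF day 56 mice and of 376.5, 563.0 and 968.1 in LF day 56 mice, against 350.8, 518.6 and 856.1 in LF day 0 mice. Its diet difference was -0.11 ± 0.23 (limma adjusted p = 0.998). Against LF day 0, Jph1 differed by 0.09 ± 0.23 in LF day 56 and -0.01 ± 0.23 in HF day 56 mice, and Jph2 by -0.07 ± 0.60 and -0.23 ± 0.60.

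A wider list of 74 calcium handling genes, of which 62 were measured, places these genes among their partners. Between the diets 0 of the 62 passed the limma test, 3 had an unadjusted p under 0.05 (5.1% of all entries did), 25 differences were positive and 37 negative, and the median was -0.0191 against 0.00289 over all entries. Between LF day 56 and LF day 0, 0 of the 62 passed, where 0.85% of all entries did, 12 had an unadjusted p under 0.05 against 10.1% of all entries, and the median difference was 0.0190 against 0.000886 over all entries. Between HF day 56 and LF day 0, 3 of the 62 passed, where 1.59% of all entries did: 1 was higher (0.783% of all entries) and 2 were lower (0.807%). An unadjusted p under 0.05 was reached by 10 of the 62 and by 11% of all entries, and the median difference was 0.0119 against 0.00238 over all entries. Of the 62 genes, 29 (46.8%) differed between the array sets, 20 higher and 9 lower on the 9 arrays, against 10.8% higher and 12.4% lower among all entries. The 2 shares are not at like levels: 47 of the 62 genes were above 20 on at least 5 arrays, against 6844 of all 16475 entries. The part of level in the gap between the shares was not tested.

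The gene that was higher was Nnat, neuronatin, a small membrane proteolipid of the endoplasmic reticulum. It had a lowest, median and highest intensity of 34.3, 108.8 and 220.0 in HF day 56 mice and of 32.3, 63.6 and 135.3 in LF day 56 mice, against 16.9, 24.95 and 59.2 in LF day 0 mice. It rose by 1.75 ± 0.32 in HF day 56 against LF day 0 mice (limma adjusted p = 0.00176), with 10 of 10 arrays above the LF day 0 mean and with overlapping ranges. On the 9 arrays and without the 17 arrays with S100a8 above 100 the difference was 1.75 and 1.94, no longer past the threshold (adjusted p = 0.369 and 0.383). It differed by 1.24 ± 0.32 between LF day 56 and LF day 0 (adjusted p = 0.0597) and by 0.51 ± 0.32 between the diets (adjusted p = 0.998). The first difference passed with only the 2 groups compared, with only entries above 20 on at least 5 arrays and with the array set as a block. Those limma adjusted p were 0.0292, 0.0358 and 0.0468. It did not pass in the other settings, single arrays left out aside. Nnat followed the adipocyte markers given above, at r = 0.773 (rho = 0.865) on the 21 arrays and 0.822 on the 9, and their part in the Nnat values was not tested.

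The genes that were lower both belong to the T-tubule group. Sypl2 (mitsugumin 29, a membrane protein of the triad junction) had a lowest, median and highest intensity of 689.1, 775.1 and 954.4 in HF day 56 and 891.6, 936.6 and 1126 in LF day 0 mice, with a small overlap. It fell by 0.28 (log2 difference -0.28 ± 0.06, limma adjusted p = 0.00688), with 10 of 10 HF arrays below the LF day 0 mean. Cav3, the muscle caveolin needed for T-tubule formation, had 255.8, 276.3 and 306.5 in HF day 56 and 261.2, 348.3 and 402.8 in LF day 0 mice. It fell by 0.30 (-0.30 ± 0.07, limma adjusted p = 0.0249), also with 10 of 10 below. Both calls were lost on the 21 arrays alone, where the differences were -0.28 for Sypl2 and -0.30 for Cav3 (limma adjusted p = 0.0963 and 0.0549). They were also lost on the 9 arrays, at -0.295 and -0.305 (adjusted p = 0.478 each in limma), and without the 17 arrays with S100a8 above 100, where Sypl2 differed by -0.25 and Cav3 by -0.14 (limma adjusted p = 0.688 and 0.865). The call for Cav3 was also lost without LF day 0 replicate 1, LF day 0 replicate 3 or HF day 56 replicate 4 (limma adjusted p = 0.0509, 0.0547 and 0.051). In LF day 56 mice against LF day 0 the differences were -0.17 ± 0.06 for Sypl2 and -0.25 ± 0.07 for Cav3 (adjusted p = 0.242 and 0.122), and between the diets -0.11 ± 0.06 and -0.05 ± 0.07 (adjusted p = 0.991 and 0.998). With the array set as a block, the Cav3 difference of LF day 56 against LF day 0 passed (limma adjusted p = 0.0263) and that of Sypl2 did not.

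Further partners of the listed proteins, Mrln, Trdn, Hrc, Pvalb and Atp2a2, did not pass the test in any of the 3 group comparisons. Myoregulin (Mrln), another small inhibitor of the pump, had medians of 1029 in HF day 56, 1123 in LF day 56 and 1017 in LF day 0 mice, and 10 of 10 LF day 56 arrays were above the LF day 0 mean (0.17 ± 0.08, limma adjusted p = 0.443). Triadin (Trdn), which ties calsequestrin to the release channel, had medians of 9021, 9083 and 8778 in the same order, with 0.09 ± 0.05 for LF day 56 against LF day 0 (adjusted p = 0.545). Hrc, a calcium-binding protein of the reticulum lumen, had medians of 1608, 1632 and 1657. Parvalbumin (Pvalb), the cytosolic calcium buffer of fast fibres, had medians of 15799, 15579 and 15687. The slow-fibre pump Atp2a2 ran from 180.0 to 914.4 in HF day 56, 192.8 to 1001 in LF day 56 and 217.8 to 802.4 in LF day 0 mice. Its medians were 638.2, 617 and 338.3. Against LF day 0 it differed by 0.26 ± 0.36 in HF day 56 and by 0.20 ± 0.36 in LF day 56 mice.

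The genes whose pattern over the 30 arrays was most like that of Sln, among 6595 named genes above background, were Aldh1a1 (a retinaldehyde dehydrogenase, r = 0.699, rho = 0.756), Slc25a28 (the mitochondrial iron carrier mitoferrin 2, r = 0.688, rho = 0.732), Ttc32 (r = 0.687), Maco1 (r = 0.658), Mepce (the capping enzyme of 7SK RNA, r = 0.657) and Lclat1 (a lysocardiolipin acyltransferase, r = 0.641). The arrays share their groups and sets, which enter these values. Aldh1a1 had mean intensities of 2264 in HF day 56, 2195 in LF day 56 and 1689 in LF day 0 mice. After centring within group and array set, the nearest genes were Rras (a small GTPase, r = 0.688), Slc48a1 (a heme transporter, r = 0.633), Cox14 (an assembly factor of cytochrome c oxidase, r = 0.611), Sertad4 (r = 0.586), Rnf149 (r = 0.581) and Ttc32 (r = 0.57). Ttc32 alone was on both lists. Without centring, on the 21 arrays, r was 0.389 for Rras, 0.421 for Slc48a1 and 0.15 for Cox14. It was -0.2 for Sertad4, 0.193 for Rnf149 and 0.699 for Ttc32. Each list holds the highest values among 6595 genes, for an Sln signal that was mostly below 20.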

How the data were processed

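Each gene has 1 intensity value on a linear scale for each array in the deposited table. GCRMA was the authors' tool for these intensities, per the submitters' processing notes (version not given in the sources used here). They ran from 1.2 to 30599, array medians from 8.9 to 9.4, and their log2 (pseudocount 0) was used. The 64 control entries among 16539 were not tested. A single symbol was available for 15780 of the 16475 entries tested, from the platform annotation.

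Differences were fitted by lmFit and eBayes of limma (version 3.58.1, R version 4.3.3) with group as the only term over 30 arrays, with two-sided p-values adjusted by Benjamini-Hochberg over all entries and a threshold of 0.05. The procedure was tested on simulated data. Array sets were parted at the widest gap in the 5′ minus 3′ signal of 4 spike-in control pairs. Named genes were the listed genes, the wider list's genes past the threshold, and 6 fixed partners (Atp2a2, Trdn, Hrc, Pvalb, Mrln and Stac3); nearest genes were the 6 of highest r under each measure. The genes and lists were chosen with earlier results of these data known. Groups came from the labels, where each mouse has its own number. No 2 arrays held identical values (highest r 0.99625). Tried as alternatives were other scalings, filters and pseudocounts, array sets and scores as covariates, subsets of arrays, and leaving out each array. Precision is limited by the number of mice.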

Additional observations from a re-analysis of the deposited data

How the results depend on the processing

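Limits. With 10 mice a group, low signal limits Sln and Pln, and in the fit by group alone the array sets limit the junctophilins. Between the diets, 4 entries passed with limma. The number was 1 with a replicate block, 8 with trend and robust, 8 with only entries above 20 on at least 5 arrays, 7 with log2(value + 16), and 12 with the slow fibre score. It was 0 with only the 2 groups, on the 21 arrays, on the 9 and without S100a8 above 100 (limma, unadjusted p under 0.05 for 799, 835, 782 and 728 entries), and 2 to 15 with single arrays left out (15 without HF replicate 3, 11 without 9, 10 without 5). Diet differences reversed for Atp2a1 with quantile normalization (-0.0061), for Pln (-0.0077) and Jph2 (0.0049) on the 9 arrays, for Pln (-0.059) and Ryr1 (0.072) without S100a8 above 100, and for Jph2 with single arrays left out (-0.41 to 0.084). The 140 entries of LF day 56 against LF day 0 became 214 with the array set as a block, 47 on the 21 arrays, 11 on the 9, 93 with the neutrophil score and 13 without S100a8 above 100, and 102 to 155 with single arrays left out. The 262 of HF day 56 against LF day 0 became 134 on the 21 arrays, 0 on the 9 (limma, 1323 at unadjusted p under 0.05) and 6 without S100a8 above 100, and 214 to 271 with single arrays left out. Sln moved to 0.61 and 0.45 with log2(value + 16) and, for HF day 56 against LF day 0, to 0.31 on the 9 arrays; leaving out single arrays gave 1.42 to 1.65 and 0.94 to 1.27. Without S100a8 above 100, Jph1 and Jph2 differed by 0.78 and 1.46 between LF day 56 and LF day 0. For the wider calcium list and its named genes, the same settings were added after seeing the data. Of the 62, between LF day 56 and LF day 0, 1 passed with only the 2 groups, with the intensity filter and with log2(value + 16), 2 with the array set as a block, and 0 to 1 with single arrays left out; for HF day 56 against LF day 0, 0 passed on the 9 arrays and without S100a8 above 100 (limma, 6 and 4 at unadjusted p under 0.05) and 2 to 4 with single arrays left out. Cav3 reversed between the diets on the 21 arrays (0.0052), and Trdn between LF day 56 and LF day 0 without S100a8 above 100 (-0.0020); with the replicate block Cav3 had an adjusted p of 0.0588 (limma) for HF day 56 against LF day 0. Fewer arrays entered the subset fits; other causes were not tested. Same-numbered mice did not vary together (correlation over 0.1 in 3, 2 and 4 of 10 pairs; nearest to their own number in 1, 0 and 2), and the block moved none of the 8 listed genes past the threshold between the diets.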

Other observations

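Ryr1 was lowest on 4 arrays, chosen here after their values were seen: LF day 0 replicates 2 and 3 (1245 and 1802) and HF day 56 replicates 8 and 2 (1405 and 1866), while the remaining arrays read 2182 to 3196. HF day 56 replicate 8 also had the highest Sln of all arrays, 47.2, and HF day 56 replicate 2 the highest Casq2, 256.5. S100a8 was 4031 on HF day 56 replicate 2 and 3809 on LF day 0 replicate 2, the highest values on the arrays, and 527.1 and 768.5 on the other 2. Over the 21 arrays Ryr1 and the neutrophil score had r = -0.457 (rho = -0.283).

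Of the wider calcium list, Stac3, an adaptor that the voltage sensor needs to open Ryr1, and Mcu, the pore of the mitochondrial calcium uniporter, also stood apart by array set; Mcu was chosen after its values were seen. Stac3 read 3331 to 4070 on the 9 arrays and 1018 to 1934 on the 21, a difference of 1.22 ± 0.07 (limma adjusted p = 1.64e-13). Mcu, near background, read 12.3 to 19.8 and 5.0 to 9.6, a difference of 1.14 ± 0.10 (limma adjusted p = 4.07e-10). Within the 21 arrays the correlation with the spike-in difference was r = -0.0633 (rho = 0.0571) for Stac3, r = 0.564 (rho = 0.508) for Mcu and r = 0.902 for Jph1, as descriptions.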
